A study of Mus musculus with 2 samples.

Results

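The replication-dependent histone genes encode the linker histone H1 and the core histones H2A, H2B, H3 and H4 that package newly made DNA. They were taken as all genes whose symbol starts with Hist1h, Hist2h, Hist3h or Hist4h. Of 67 such genes among the 32285 genes counted, 63 had at least 20 UMIs (unique molecular identifiers, each standing for 1 captured RNA molecule) over both libraries, and these 63 were followed. The same minimum left 19495 genes of the whole table. The 4 genes left out were Hist1h2bq with 2 UMIs, Hist1h2aa with 1 UMI, and Hist2h2aa2 and Hist1h2ba with 0 UMIs. Just inside the limit were Hist1h2ao with 28 UMIs and Hist1h1t, the testis H1, with 41 UMIs.

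Single-cell RNA sequencing with 3' capture was carried out on hearts of mouse embryos at stage E10.5, in 1 library per group. The wildtype library came from BubR1+/+ ; Nkx2.5-cre (het) hearts and the knockout library from BubR1fl/fl ; Nkx2.5-cre (het) hearts, with 4 hearts pooled in each. Both groups therefore carried 1 copy of a Cre recombinase driven from Nkx2.5, a gene of cardiac progenitors, so that Cre was also present in the control hearts. BubR1, encoded by Bub1b, is a checkpoint protein that holds back chromosome separation in mitosis until the spindle is attached. With 1 pooled library per group no difference between groups was tested, and every interval given here is a 95% interval for counting error only, which leaves out the spread between hearts and between libraries.

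Replication-dependent histone genes lie in clusters, mostly lack introns and are transcribed mainly in S phase, when DNA is copied. Their messages are the animal mRNAs that usually end in a conserved stem-loop, bound by the protein SLBP, instead of a poly(A) tail, and they are degraded when DNA synthesis ends. Some members also make a polyadenylated message, and the histone variants made outside S phase are encoded by separate, polyadenylated genes. Capture here was primed on poly(A), so the UMIs count molecules that were primed and do not give the full level of stem-loop messages. UMIs of different members are therefore compared between cells and libraries, and are not read as an order of mRNA level among genes.

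The stem-loop was looked for in the annotated transcripts (GENCODE vM21), because it is the feature that sets these messages apart from the poly(A)-tailed messages that the assay was built to capture. It was found in 43 of the 63 members, beside 53 of 58797 protein-coding transcripts in all (0.0901%). A further signal, AATAAA in the last 60 bases, stood in 12 members (19.0%) beside 41.1% of protein-coding transcripts. The lines below show the stem-loop in capitals with 5 bases on each side, 5′ to 3′, for 7 members to which the results return. The first 4 also have AATAAA in the last 60 annotated bases.
Hist1h1c: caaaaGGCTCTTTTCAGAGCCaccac
Hist1h2ae: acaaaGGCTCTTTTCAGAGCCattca
Hist3h2a: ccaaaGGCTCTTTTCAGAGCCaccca
Hist3h2ba: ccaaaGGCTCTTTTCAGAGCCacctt
Hist1h3c: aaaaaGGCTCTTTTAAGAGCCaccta
Hist1h4d: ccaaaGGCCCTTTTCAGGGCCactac
Hist1h4i: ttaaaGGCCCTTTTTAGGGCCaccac

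The run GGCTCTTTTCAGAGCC, seen in the first 4 lines, was shared by 25 members, and the H3 gene and both H4 genes shown carry other letters in it. Hist1h1b and Hist1h2bc held no stem-loop in their annotated transcripts. For Hist1h2bc, which lies at chr13:23684199-23692908 (mm10, plus strand), the annotated transcript has 2 exons. The absence describes the annotated transcript and not the messages in these cells.

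Promoters were matched to RefSeq (GRCm38.p6) for 57 members, and windows from 250 bases before to 50 bases after the start were searched on both strands for the letters of a TATA box (TATAAA), for those of a CCAAT box, and for those of the octamer (ATTTGCAT) known from histone promoters. TATAAA was found in 33 of 57 members (57.9%) beside 13.6% of all 32851 promoters. CCAAT stood in 48 members (84.2%) beside 37.4% of all, and ATTTGCAT in 11 members (19.3%) beside 1.74%. The octamer letters were found in 6 of 15 H2A and 5 of 14 H2B promoters and in none of the others. CCAAT was in every H1, H2A, H2B and H3 promoter searched but in 3 of the 12 H4 promoters. The 250 bases before the start of 4 members are printed below, 5′ to 3′ along the gene's own strand, with matches on either strand in capitals. They were chosen because these genes behaved unlike each other in the results: Hist1h1b (chr13:21780626-21780875, minus strand), Hist1h1c (chr13:23738557-23738806, plus strand), Hist1h2ac (chr13:23683960-23684209, minus strand) and Hist3h2ba (chr11:58948661-58948910, plus strand).
Hist1h1b: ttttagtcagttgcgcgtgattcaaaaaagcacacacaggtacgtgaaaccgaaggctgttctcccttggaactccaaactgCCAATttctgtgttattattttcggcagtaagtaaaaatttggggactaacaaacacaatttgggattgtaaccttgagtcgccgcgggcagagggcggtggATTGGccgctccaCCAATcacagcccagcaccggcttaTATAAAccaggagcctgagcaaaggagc
Hist1h1c: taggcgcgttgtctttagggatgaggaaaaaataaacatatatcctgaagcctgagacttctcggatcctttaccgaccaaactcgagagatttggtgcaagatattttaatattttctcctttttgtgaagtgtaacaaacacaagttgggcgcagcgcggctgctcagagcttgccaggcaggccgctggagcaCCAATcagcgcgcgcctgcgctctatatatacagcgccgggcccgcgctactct
Hist1h2ac: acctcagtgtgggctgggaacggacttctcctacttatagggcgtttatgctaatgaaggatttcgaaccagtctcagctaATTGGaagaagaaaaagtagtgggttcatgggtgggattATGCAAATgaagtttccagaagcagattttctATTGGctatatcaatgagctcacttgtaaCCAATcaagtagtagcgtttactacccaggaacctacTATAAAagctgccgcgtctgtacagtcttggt
Hist3h2ba: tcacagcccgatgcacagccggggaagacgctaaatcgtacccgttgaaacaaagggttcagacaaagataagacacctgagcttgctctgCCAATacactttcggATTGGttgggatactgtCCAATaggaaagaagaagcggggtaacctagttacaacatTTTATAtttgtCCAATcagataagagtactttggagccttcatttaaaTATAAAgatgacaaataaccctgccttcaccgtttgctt

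The Hist1h2ac sequence is also the start region of Hist1h2bc, which is transcribed the other way, with 250 bases between the annotated starts. It holds the octamer letters, CCAAT letters in 3 places and TATAAA. The Hist1h1c window held CCAAT but not TATAAA. Such a match describes letters and not a bound site. By location, 51 members lay on chromosome 13, 9 on chromosome 3, 2 on chromosome 11 and 1 on chromosome 6. In all, 11 pairs of members had their starts head to head within 1000 bases.

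The wildtype library held 7440 barcodes that passed the filters (at least 3000 UMIs, at least 500 genes and at most 20% mitochondrial UMIs), with a median of 9504.5 UMIs. The knockout library held 5966 such barcodes with a median of 17042.5 UMIs, so the libraries differed in depth. Only 8 barcode sequences were shared. Cells were put in a class when the markers of exactly 1 cell type passed a limit. Cardiomyocyte-like cells numbered 574 in the wildtype and 602 in the knockout library, endothelial or endocardial-like cells 1196 and 651, mesenchymal-like cells 1572 and 124, epicardial-like cells 451 and 1979, and erythroid-like cells 1926 and 1159. In each of these 5 classes every marker of the class's own list was detected in both libraries, and 58 hepatoblast-like cells were found in the knockout library alone. In the cardiomyocyte-like cells the targeted gene, Bub1b, stood at 60.2 UMIs per 1000000 in the wildtype and 31.3 in the knockout library, and in epicardial-like cells at 24.0 and 45.5. The part of the gene removed by Cre was not given, and 3' reads outside that part check nothing.

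The 63 members together had 49889 UMIs in the wildtype and 109538 in the knockout library. Their families were uneven in size: H1 had 6 members, H2A and H2B 16 each, H3 12 and H4 13. Hist1h1b, which encodes the linker histone H1.5, gave 40666 UMIs or 25.5% of all member UMIs. Hist1h1e, another linker histone gene, gave 14793 UMIs (9.28%), and the 12 members with most UMIs together gave 78.7%. As related genes, 58 members shared at least one 90-base stretch with another gene, and for 26 this held for most of their stretches. The counts of single near-identical copies are therefore less certain, and UMIs of such copies may be missed. Of the 63 members, 22 overlapped another gene, 7 of these on the same strand, among them Hist3h2a, which overlaps Trim17.

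The histone level differed by class within the wildtype library. In counts per 1000000 UMIs of the class (CPM), the members summed to 949 (933 to 964) in mesenchymal-like cells, 658 (643 to 674) in endothelial-like, 615 (591 to 639) in epicardial-like, 561 (546 to 577) in cardiomyocyte-like and 188 (183 to 194) in erythroid-like cells. No 2 neighbours in this order overlapped in their counting intervals. In the knockout library the erythroid-like cells were at 1249 (1235 to 1263), mesenchymal-like cells at 1095 (1046 to 1145), epicardial-like at 983 (973 to 993), endothelial-like at 634 (618 to 650) and cardiomyocyte-like at 432 (420 to 444). Among the classes listed here, erythroid-like cells thus stood lowest in the wildtype and highest in the knockout library on the scale of all UMIs. Hemoglobin took 77.9% of the UMIs of wildtype erythroid-like cells. Per 1000000 UMIs without hemoglobin these cells were at 851, below mesenchymal-like cells at 951 and above endothelial-like cells at 661. Their low place among the wildtype classes therefore depends on the scale.

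**Figure D1:**
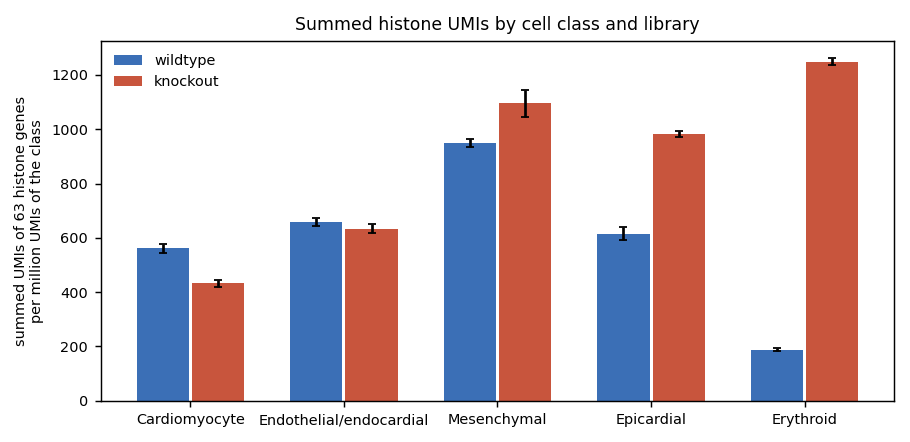
Summed UMIs of the 63 histone genes per 1000000 UMIs (CPM) of each cell class (vertical axis), in the wildtype (blue) and knockout (red) library; error bars are 95% counting intervals. Cardiomyocyte-like cells were lower in the knockout library (561 against 432), endothelial-like cells nearly level (658 against 634), and mesenchymal-like, epicardial-like and erythroid-like cells higher.

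Free RNA, measured in barcodes with 10 to 100 UMIs, held histone messages at 314 CPM in the wildtype and 536 in the knockout library, above the 188 of wildtype erythroid-like cells. From genes that a class should lack, free RNA could make up at most 5.84% of the UMIs of wildtype and 2.86% of those of knockout erythroid-like cells, which is at most 18.3 and 15.3 histone CPM. In the other 4 classes it was at most 4.10% of UMIs and 12.9 histone CPM.

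In cardiomyocyte-like cells, in which Nkx2.5-driven Cre is expected to act, the members together were lower in the knockout library, at 432 against 561 CPM, a log2 ratio of -0.38 (-0.43 to -0.32). The difference lay mainly in the linker histones: the H1 family was at 268 CPM in the wildtype and 168 in the knockout library (log2 -0.67), H2B at 84.2 and 64.1 (-0.39), H2A at 137 and 121 (-0.18), and H3 at 33.0 and 31.2 (-0.08). H4 was at 39.4 and 47.8 (0.28).

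Hist1h1b was at 157 CPM in wildtype and 92.7 in knockout cardiomyocyte-like cells, a log2 ratio of -0.76 (-0.88 to -0.65) from 1382 and 1145 UMIs. Other H1 genes were lower as well, with log2 ratios of -0.77 for Hist1h1a, -0.77 for Hist1h1d and -0.48 for Hist1h1e. Hist1h1c, an H1 gene with AATAAA after its stem-loop, was at 29.2 and 19.3 (-0.59). All 5 measured H1 genes were thus lower in the knockout library, and none reached a 2-fold difference. Among the core histones Hist1h2ap (-0.58) and Hist1h3c (-0.45) were also lower, while Hist1h2ae was at a log2 ratio of 0.11 (352 and 533 UMIs), Hist2h2ac at 15.7 and 16.8 (0.10) and Hist1h4d at 19.7 and 20.2 (0.04), all with intervals that held 0. Hist1h4i was the other way, at 7.16 and 13.1 (0.87, 0.44 to 1.32), and Hist1h3e at 4.20 and 6.56 (0.64).

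Over the class, 44 members had at least 20 UMIs. A difference of at least 2-fold was used to call a gene: 1 member was called higher and 1 lower, beside 4.99% of all 13716 genes higher and 4.73% lower. The member called lower was Hist3h2ba, an H2B gene outside the main cluster, at 15.2 and 7.37 CPM (-1.05, -1.45 to -0.65). The member called higher, Hist4h4, had 4 and 20 UMIs and is named after its values were seen. The median member was at -0.22 and the median gene of the class at 0.01. Intervals lay below 0 for 10 members and above 0 for 3. The share of all genes whose intervals left out 0 was not counted.

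Cardiomyocyte-like cells of the 2 libraries also differed in regional markers, in lists chosen after the data were seen. The summed level of 6 ventricular genes was 18376 CPM in the wildtype and 12932 in the knockout library, with 4 genes lower and 2 higher. That of 7 genes of the atrioventricular canal and outflow tract was 82.5 and 389, with all 7 higher, and that of 6 atrial genes 9762 and 13459, with 3 lower and 3 higher. The part of this composition in the histone difference was not tested. Of the cell cycle, the S phase list without histones summed to 2476 and 2512 CPM (0 of 60 genes called, median 0.04), and the G2/M list to 5995 and 4925 (0 of 57 called, median -0.30). The inhibitors of cyclin-dependent kinases differed in direction: Cdkn1a was at 17.0 and 46.9 CPM (1.46), Cdkn1c at 361 and 1040 (1.53), and Cdkn2c at 9.43 and 1.94 (-2.28). These were the 3 called genes of 14 in the list on histone mRNA decay and S phase arrest.

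In endothelial or endocardial-like cells the summed level was nearly level between libraries, at 658 and 634 CPM (log2 -0.05, -0.11 to -0.00), and its sign turned, to 0.07, when taken relative to the median gene at -0.12. This sum hid opposite signs by family: H1 was at 298 and 238 (-0.33), while H2A was at 0.10, H3 at 0.30, H4 at 0.31 and H2B at -0.01 on the log2 scale. Hist1h1b was at 160 and 136 CPM (-0.23, -0.34 to -0.12), Hist1h1e at 88.1 and 64.8 (-0.44) and Hist1h1c at 23.6 and 15.2 (-0.64). Hist1h2ae, an H2A gene, was at 70.1 and 95.4 (0.44, 0.30 to 0.59). Of 43 members measured, 1 was called higher and 2 lower, beside 2.20% and 8.26% of all 13595 genes. The called members were Hist1h3i (1.08), Hist1h2af (-1.03) and, named after its values were seen, Hist1h2bg (-1.29).

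In mesenchymal-like cells the sum was 949 in the wildtype and 1095 in the knockout library (0.21, 0.14 to 0.28). This class had only 124 cells in the knockout library, of which 56 lay within 0.05 of the marker limit, and its own 12 markers summed to 7739 CPM in the wildtype and 4266 in the knockout library, so the classes differed in marker level too. With cells within 0.05 of the limit left out, 68 knockout cells remained and the log2 ratio was 0.03. With a stricter limit, 26 knockout cells remained and it was -0.21. Of 45 members measured, 2 were called higher and 3 lower, beside 2.95% and 16.1% of all 14086 genes. Hist1h1b was at 297 and 330 CPM (0.16), Hist1h2ae at 69.0 and 121 (0.81, 0.59 to 1.03) and Hist1h4d at 37.2 and 59.9 (0.69). Hist1h2ak, called higher at 4.56 and 11.4 (1.32), rests on 67 and 20 UMIs, and Hist1h4j, named after its values were seen, on 20 and 5. The called lower members were Hist3h2ba with 143 and 2 UMIs (-3.09), Hist1h2af with 111 and 5 (-1.40) and Hist1h2bn with 54 and 3 (-1.10). With cells thinned to 3000 UMIs the last 2 turned, to 0.55 for Hist1h2af and 0.76 for Hist1h2bn.

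In epicardial-like cells, which form the outer layer of the heart, the members together were higher in the knockout library, at 983 against 615 CPM (0.68, 0.62 to 0.74), beside a median gene at -0.05. Of 59 members measured, 32 were called higher and 3 lower, beside 7.99% and 11.8% of all 15418 genes. Among the 32, 4 had no UMI in the wildtype library. With a floor of 3 UMIs there, Hist1h3g was at least 2.89-fold higher and Hist1h4n at least 2.14-fold higher, while the bounds of Hist1h2ah (at least 1.11-fold higher) and Hist1h4f (at least 1.04-fold higher), both named after their values were seen, lay under 2-fold. With these 4 members at their bound, 30 members were called higher and the median member was at 1.06.

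By family the epicardial-like values were 248 and 456 CPM for H1 (0.88), 150 and 242 for H2A (0.69), 26.2 and 68.6 for H3 (1.39) and 255 and 4109 UMIs for H4 (0.79). H2B was the exception in its sum, at 128 and 108 (-0.24), although its median member was at 1.02. Hist1h2bc alone held 290 of the 517 wildtype H2B UMIs. Hist1h1b was at 124 and 304 CPM (1.29, 1.16 to 1.42), Hist1h2ae at 37.8 and 85.5 (1.18), Hist2h2ac at 14.8 and 36.5 (1.30), Hist1h3c at 9.63 and 23.5 (1.28) and Hist1h4d at 15.1 and 52.8 (1.81). Hist1h3e had the same direction, with 12 and 568 UMIs (2.34), and Hist1h2ak rested on 2 wildtype UMIs against 278 (3.90, 2.03 to 6.95). Low wildtype counts, with 451 cells against 1979, make the ratios of rare members the least certain.

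The 3 members called lower in epicardial-like cells were Hist1h2bc, at 71.6 and 30.2 CPM (-1.25, -1.43 to -1.05), Hist3h2a at 37.3 and 13.7 (-1.45, -1.71 to -1.17) and Hist3h2ba at 20.5 and 2.83 (-2.86, -3.28 to -2.42). The last 2 are neighbours on chromosome 11. Among cells with at least 15 UMIs of S phase genes, a range described further on, Hist1h2bc turned to 2.49 and Hist3h2a to 0.41. The wildtype side of that Hist1h2bc ratio rests on only 2 UMIs in 42 cells. Hist1h1c was lower as well, at 49.9 and 27.9 (-0.84), under the 2-fold limit. The calls were also counted by shared sequence. Of 36 members with at most 50% of their stretches shared, 21 were called higher and 3 lower (median 1.21), and of the 23 with more shared, 11 were called higher and 0 lower (median 0.96).

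The epicardial-like cells also differed in cell cycle genes: the S phase list without histones was at 2260 and 4253 CPM, with 23 of 60 genes called higher (median 0.90), and the G2/M list at 3154 and 6145, with 32 of 57 called higher (median 1.06). Mesenchymal markers in this class summed to 3832 and 1995 CPM and epicardial markers to 3907 and 3332. Median depth was 8256 UMIs in the wildtype and 17329 in the knockout library. The part of these differences in the histone levels was not tested. Genes that act on histone messages were mostly level. Of 29 measured genes for the transcription and processing of histone mRNA, 3 were called higher and 0 lower, beside 7.99% and 11.8% of all genes. Ccne2, a cyclin whose kinase acts at the start of S phase, was at 15.6 and 65.9 (2.08) and Slbp, whose protein binds the stem-loop, at 57.6 and 122 (1.09), while Lsm11 (-0.30) and Cpsf1 (-0.19) were the lowest. The third was Zfp473, named after its values were seen, with 0 UMIs in the wildtype and 34 in the knockout library. Of 25 histone chaperone and chromatin assembly genes, 2 were called higher, close to the share of all genes. They were Chaf1a at 25.4 and 58.7 (1.21) and Asf1b at 12.4 and 26.3 (1.09), and Cabin1 (-0.34) was the lowest. Ccne2, Slbp, Chaf1a and Asf1b also belong to the S phase list, so these counts are not separate from it. Of the 11 measured replication-independent histone genes, 0 were called: H2afz, an H2A variant, was at 961 and 1716 (0.84), Cenpa, the centromeric H3, at 0.71 on the log2 scale, and H1f0, the linker histone of resting cells, at 118 and 76.5 (-0.62). In cardiomyocyte-like cells 0 of 28, 0 of 25 and 0 of 11 genes of these lists were called. Slbp was at 48.8 and 60.1 CPM there (0.30), Npm1 had the highest ratio among the chaperones (0.57) and Asf1b the lowest (-0.44).

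**Figure D2:**
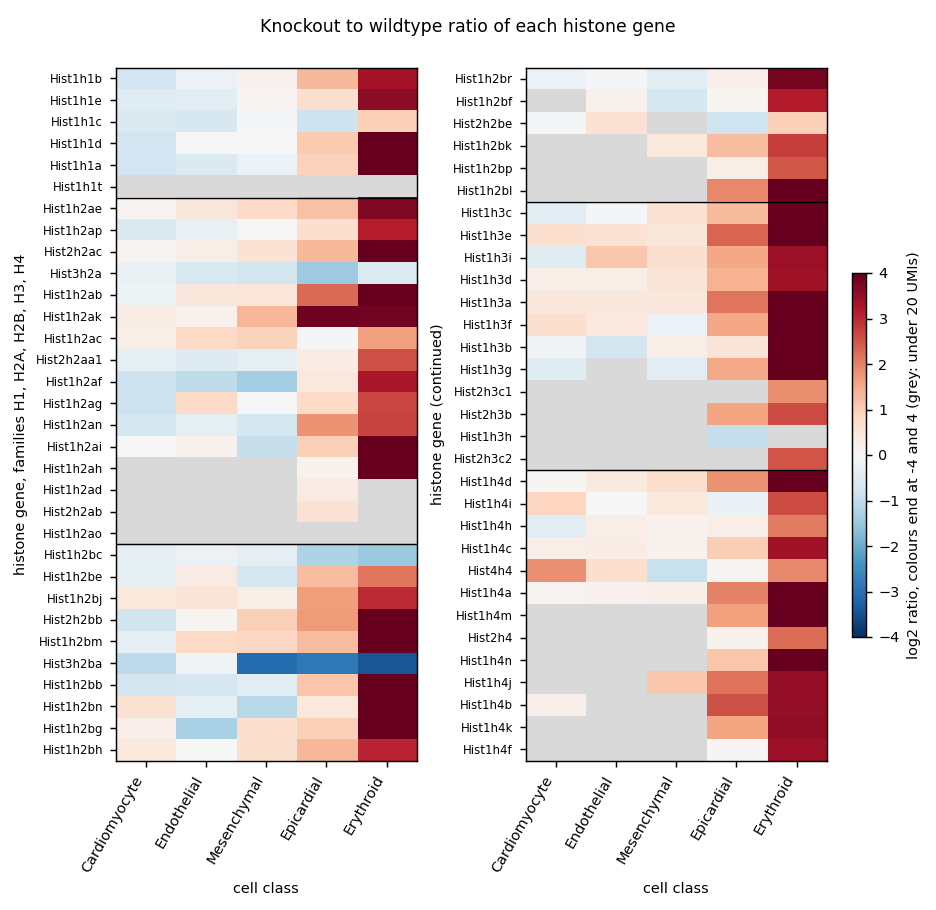
Log2 ratio of knockout to wildtype CPM for each of the 63 histone genes (rows, grouped by family) in 5 cell classes (columns); red is higher and blue lower in the knockout library, grey has under 20 UMIs, and members with no wildtype UMI are drawn at their lower bound. In the erythroid column 53 of 58 measured members were called higher, the epicardial column is mixed with 3 members called lower, and Hist1h2bc and Hist3h2ba are blue in both.

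In erythroid-like cells, the red cells of the embryo, the members together were at 188 CPM in the wildtype and 1249 in the knockout library (2.73, 2.68 to 2.78). Of 58 measured, 53 were called higher and 2 lower, beside 50.1% and 13.8% of all 12961 genes, and the median gene was itself at 1.00. Hemoglobin took 77.9% of the UMIs of this class in the wildtype and 46.0% in the knockout library, and without hemoglobin the histone level was 851 and 2314 per 1000000. Hist1h1b was at 23.7 and 240 CPM (3.34), Hist1h2ae at 10.3 and 135 (3.71), Hist1h4d at 3.59 and 76.1 (4.41) and Hist1h3e had 17 and 500 UMIs (4.73). Hist1h4a was at 0 and 94 UMIs, at least 28.3-fold higher, and Hist1h3g had 1 and 111 UMIs, a log2 ratio of 6.65 (4.14 to 11.97). Hist1h2bg was at 5.51 on this scale.

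Against these stood Hist1h2bc, at 54.1 and 19.2 CPM (-1.49, -1.65 to -1.34), and Hist3h2ba with 48 and 5 UMIs (-3.41), the 2 members called lower, with Hist3h2a at 3.81 and 2.61 (-0.55). Hist1h2bc alone gave 1222 of the 1512 H2B UMIs in the wildtype library, so the H2B sum was at 0.99 with a median member at 3.11. The other families were at 3.00 for H1, 3.36 for H2A, 3.95 for H3 and 3.16 for H4. The S phase list was called higher in 60 of 60 genes (median 3.08). Of the replication-independent histones 4 of 11 were called higher and 1 lower, and H3f3a, which encodes H3.3, was at 1043 and 1142 CPM (0.13) and H1fx, the member called lower, at 9.88 and 4.93.

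The erythroid-like cells differed between libraries in hemoglobin share, and hemoglobin is known to build up as red cells mature. In the wildtype library 69.0% of them had at least 80% hemoglobin UMIs, and none did in the knockout library, where 83.4% lay between 40% and 60%. Per 1000000 other UMIs, the members were at 994 (wildtype, 110 cells) and 1670 (knockout, 172 cells) under 40% hemoglobin, at 783 (134 cells) and 2481 (967 cells) between 40% and 60%, and at 1098 (354 cells) and 2609 (20 cells) between 60% and 80%. The knockout level was higher in each of these ranges. Hist1h1b per 1000000 other UMIs was at 270, 143 and 124 in the first 3 wildtype ranges of hemoglobin and had 35 UMIs in the 1328 cells from 80% up, while Hist1h2bc went from 85.0 to 134, 331 and 328. In the knockout library Hist1h2bc was at 24.7, 38.0 and 78.8 and Hist1h1b at 386, 460 and 370. Over the first 3 wildtype ranges Hist1h2bc was higher, and Hist1h1b lower, with each step up in hemoglobin; in the highest range Hist1h2bc was close to its value in the third. The part of cell stage in the difference between libraries was not tested.

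**Figure D3:**
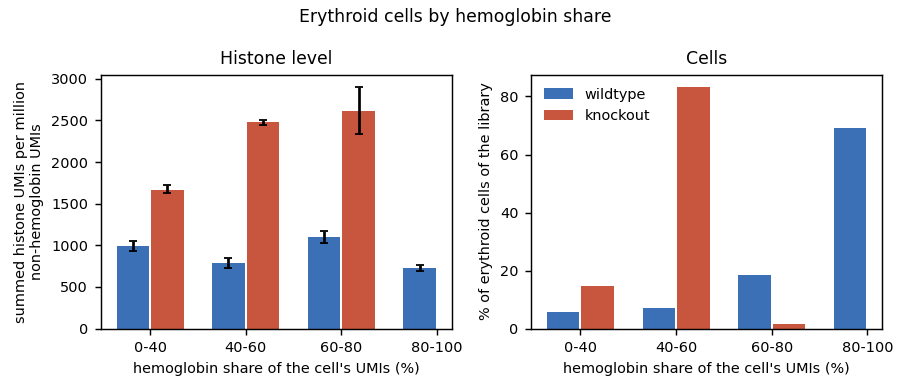
Left, summed histone UMIs per 1000000 non-hemoglobin UMIs of erythroid-like cells (vertical axis) by the hemoglobin share of the cell's UMIs, in wildtype (blue) and knockout (red), with 95% counting intervals; right, the share of the library's erythroid-like cells in each range. Knockout bars are higher in the 3 ranges both libraries fill (1670, 2481 and 2609 against 994, 783 and 1098), and the range from 80% up holds 69.0% of wildtype cells and no knockout cell.

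Over the 5 classes, 40 members were measured in each with UMIs in both libraries. Over all cells of each class, Hist1h2bc, Hist3h2a and Hist3h2ba had a log2 ratio below 0 in all 5. Another 10 members had one above 0 in all 5. The share of all genes with 1 sign in all 5 classes was not counted, and the classes share the same 2 libraries. In epicardial-like cells of high S phase score Hist1h2bc and Hist3h2a turned, as given above. For Hist1h2bc the ratios were -0.39, -0.24, -0.36, -1.25 and -1.49 in cardiomyocyte, endothelial, mesenchymal, epicardial and erythroid-like cells. For Hist3h2a they were -0.28, -0.61, -0.73, -1.45 and -0.55, and for Hist3h2ba -1.05, -0.14, -3.09, -2.86 and -3.41. The intervals of Hist1h2bc in mesenchymal-like and of Hist3h2ba in endothelial-like cells held 0, and that of Hist3h2a in cardiomyocyte-like cells reached 0.00. Over all kept barcodes, 37 of 63 members were called higher and 1, Hist3h2ba, lower, beside 7.16% and 12.9% of 19495 genes.

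Head-to-head pairs included both unlike and like values. Hist1h2ac, on the other side of the promoter printed above, was at 4.94 and 4.69 CPM (-0.08) in epicardial-like cells where Hist1h2bc was at -1.25, and at 1.64 in erythroid-like cells where Hist1h2bc was at -1.49. Hist2h2ac and Hist2h2be, with 238 bases between their starts, were at 1.30 and -0.79 in epicardial-like and at 4.44 and 0.96 in erythroid-like cells. The pair Hist1h2ae and Hist1h2bg, 175 bases apart, had 1.18 and 0.95 in epicardial-like cells, and Hist1h2bh and Hist1h3f 1.32 and 1.55. These 4 of the 11 pairs were named after their values were seen.

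Because these genes are known as S phase genes, the cells of each library were next ordered by the summed UMIs of 60 other S phase genes, after each cell was thinned to 3000 UMIs. In the wildtype library the members went from 268 CPM in cardiomyocyte-like cells with at most 5 S phase UMIs (322 cells) to 1310 in those with at least 15 (72 cells), a log2 ratio of 2.29 (2.18 to 2.40). In endothelial-like cells they went from 224 to 2070 (3.21), in mesenchymal-like cells from 395 to 2140 (2.44) and in epicardial-like cells from 438 to 1284 (1.55). In the thinned cells the same held for mean histone UMIs per cell, which in wildtype endothelial-like cells was 6.06 in the highest range. Replication-independent histones, at 9.66 to 12.3 UMIs per thinned wildtype cardiomyocyte-like cell, covered a narrower range.

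**Figure D4:**
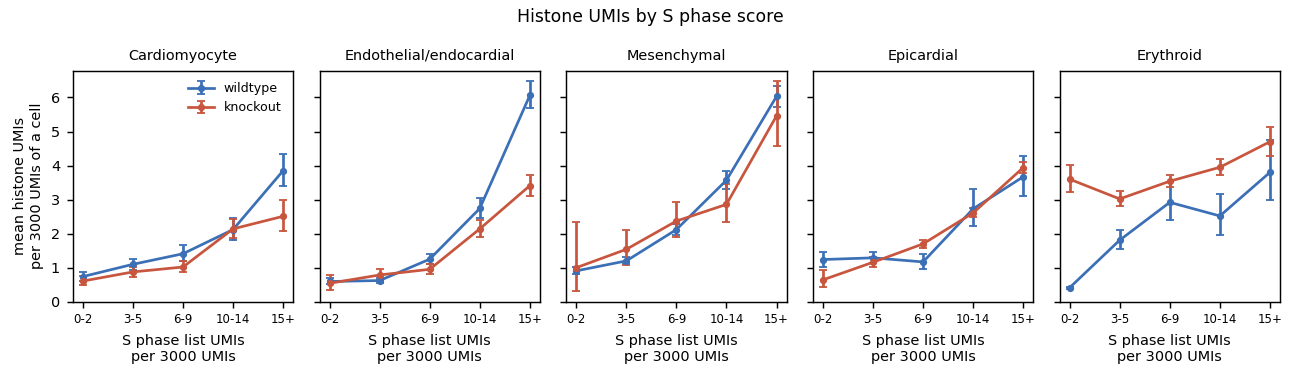
Mean histone UMIs per cell thinned to 3000 UMIs (vertical axis) against the S phase list UMIs of the same thinned cell (horizontal axis, 5 ranges), for 5 cell classes in wildtype (blue) and knockout (red); bars are 95% counting intervals. The means were higher in the top range than in the lowest in the 4 heart classes, with wildtype epicardial-like cells at 1.24, 1.29 and 1.17 over the first 3 ranges and endothelial-like cells reaching 6.06 (wildtype) and 3.41 (knockout), and the knockout erythroid-like line starts high, at 3.60.

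Within these cells members were called by the same 2-fold rule. In wildtype cardiomyocyte-like cells 15 of 20 measured members were higher and 3 lower at high S phase scores, beside 4.44% and 5.99% of all genes. In wildtype endothelial-like cells 21 of 24 were higher and 1 lower (beside 6.72% and 6.20%), in mesenchymal-like cells 33 of 38 higher and 2 lower (4.69% and 6.39%), and in epicardial-like cells 8 of 13 higher and 4 lower (6.21% and 7.16%). Among the 124 knockout mesenchymal-like cells 5 of 10 were higher and 0 lower (5.51% and 4.11%). In the other knockout classes the counts were 13 of 20 higher and 1 lower in cardiomyocyte-like cells (4.12% and 6.80%), 17 of 22 and 1 in endothelial-like cells (4.99% and 1.85%) and 39 of 52 and 3 in epicardial-like cells (4.43% and 2.25%).

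Hist1h1b was higher in the high range of each class: from 36.1 to 491 CPM in wildtype cardiomyocyte-like cells (3.76), 17.1 to 633 in endothelial-like (5.21), 61.4 to 809 in mesenchymal-like (3.72) and 25.8 to 465 in epicardial-like cells (4.17). In the knockout library it went from 33.8 to 232 in cardiomyocyte-like cells (2.78), 17.3 to 282 in endothelial-like (4.03) 75.4 to 485 in epicardial-like (2.69) and, among the 29 and 24 mesenchymal-like cells of these ranges, 202 to 532 (1.39). Its low-range level was thus close in both libraries in the first 2 classes, and its high-range level was lower in the knockout library there. Hist1h2ae went from 8.13 to 128 in wildtype cardiomyocyte-like cells (3.98) and to 136 in knockout ones (3.09, from 86 UMIs in the low range), so that the high-range levels of this H2A gene were close.

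Not every member followed the S phase score. Of 13 members measured in all 4 heart classes of the wildtype library, 8 were at least 2-fold higher in the high range in all 4: Hist1h1a, Hist1h1b, Hist1h1d, Hist1h1e, Hist1h2ae, Hist1h2ap, Hist1h4d and Hist2h2ac. Hist1h2bc, Hist3h2a and Hist3h2ba were lower at high S phase scores in all 4. These UMIs count molecules primed on poly(A) and do not give the full level of stem-loop messages. They therefore do not decide whether these genes are replication-dependent. For both groups of members, the share of all genes with the same direction in all 4 classes was not counted. Hist1h2bc went from 46.6 to 18.1 CPM in cardiomyocyte-like cells (-1.37), 44.7 to 15.9 in endothelial-like (-1.49), 63.5 to 16.1 in mesenchymal-like (-1.98) and 107 to 4.29 in epicardial-like cells (-4.64, from 236 and 2 UMIs). Hist3h2a was at -2.30, -0.82, -0.95 and -2.99 in the same 4 classes, and Hist3h2ba at -1.70, -0.95, -2.85 and -1.16. The intervals of both genes in endothelial-like cells, and of Hist3h2ba in epicardial-like cells, held 0.

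Hist1h2bc kept this direction in the knockout library, from 36.2 to 19.8 (-0.87) in cardiomyocyte-like cells, 51.3 to 10.2 (-2.33) in endothelial-like and 48.5 to 24.2 (-1.01) in epicardial-like cells. The other 2 of the 13, Hist1h1c and Hist1h4i, had ratios on both sides of 0 or under 2-fold: Hist1h1c was at 0.35, 1.17, 0.68 and -1.69 in wildtype cardiomyocyte, endothelial, mesenchymal and epicardial-like cells, and Hist1h4i at 0.84, 1.59, 1.23 and -0.03. The 3 members that were lower at high S phase scores were also the 3 below 0 between libraries in all 5 classes. Both comparisons use the wildtype library, so one is no independent support of the other. Hist3h2a and Hist3h2ba were among the 12 members with AATAAA in the last 60 bases, but so was Hist1h2ae, which was at 3.98 in wildtype cardiomyocyte-like cells.

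**Figure D5:**
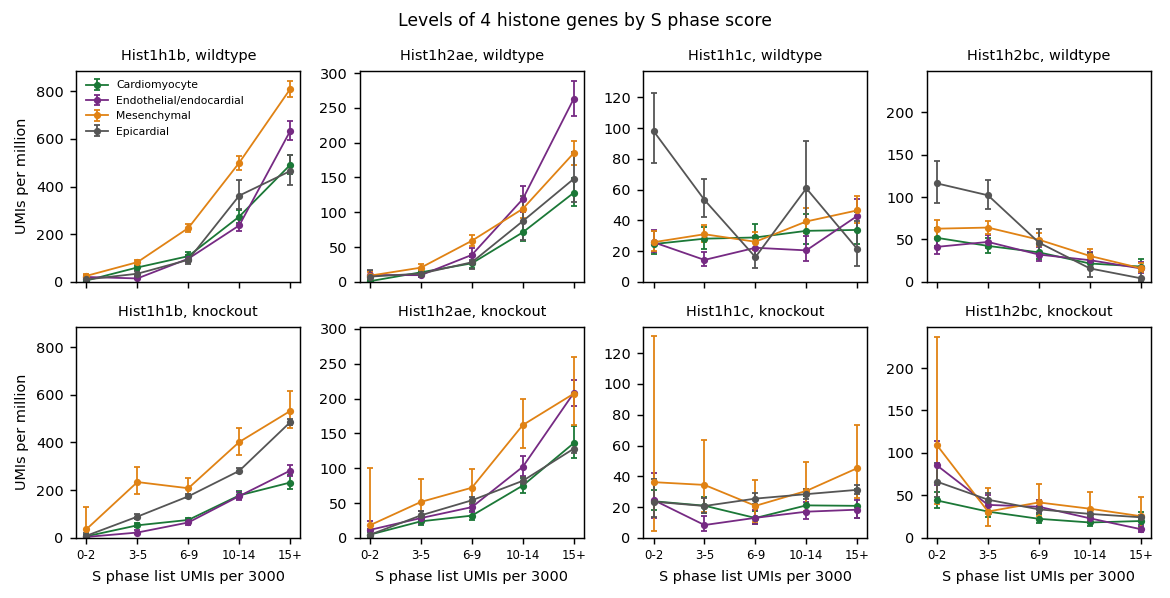
CPM (vertical axes) of Hist1h1b, Hist1h2ae, Hist1h1c and Hist1h2bc by S phase list UMIs per 3000 (horizontal axes, 5 ranges) in 4 heart cell classes (colours), wildtype above and knockout below, with 95% counting intervals. Hist1h1b and Hist1h2ae climb (Hist1h1b to 809 in wildtype mesenchymal-like cells), Hist1h1c shows no common slope, and Hist1h2bc declines from 44.7 or more at low scores to 18.1 or less at high scores in each wildtype class.

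H2B as a family showed the flattest slope in 3 of the 4 wildtype heart classes and a negative one in the last, at 0.27 in cardiomyocyte-like, 0.88 in endothelial-like, 0.30 in mesenchymal-like and -0.91 in epicardial-like cells. H1 was at 2.95, 3.72, 3.07 and 2.42, H2A at 2.46, 3.98, 2.76 and 2.14, and H3 at 2.94, 3.49, 2.47 and 2.29. H4 lay between, at 1.81, 2.19, 1.76 and 0.56. Hist1h2bc gave many of the H2B UMIs, so the H2B sum mixes members of opposite slope.

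Cells in the same S phase range were then compared between libraries, in an alternative added after the data were seen. Among cells with at least 15 S phase UMIs, the knockout to wildtype log2 ratio of the summed members was -0.63 in cardiomyocyte-like, -0.87 in endothelial-like, -0.31 in mesenchymal-like, 0.11 in epicardial-like and 0.13 in erythroid-like cells. Among cells with at most 5 it was 0.01, 0.06, 0.88, -0.09 and 2.91. In erythroid-like cells the UMIs behind the ranges include hemoglobin, whose share differed between libraries, so their ranges are not alike. The epicardial-like difference of 0.68 was thus 0.11 and -0.09 in these end ranges, but the ranges between them differed in both directions. Epicardial-like cells with 6 to 9 S phase UMIs, 23.9% of those of the knockout library, were at 468 CPM in the wildtype and 701 in the knockout library. Those with 10 to 14, 29.7% of the knockout cells, were at 1208 and 950. The share of epicardial-like cells with at least 15 S phase UMIs was 9.31% in the wildtype and 34.2% in the knockout library. The corresponding shares were 12.5% and 8.47% in cardiomyocyte-like and 12.9% and 23.2% in endothelial-like cells.

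Across single cells the thinned histone and S phase UMIs were positively related in the heart classes. In wildtype cells Pearson's r was 0.41 over 574 cardiomyocyte-like, 0.55 over 1196 endothelial-like, 0.43 over 1572 mesenchymal-like and 0.24 over 451 epicardial-like cells, with Spearman's rho of 0.33, 0.32, 0.29 and 0.07. In knockout cells r was 0.33, 0.43, 0.37 and 0.30, with rho of 0.32, 0.35, 0.32 and 0.29. With the G2/M list, rho was 0.27, 0.42, 0.52 and 0.27 in the same wildtype classes. It was 0.27, 0.44, 0.52 and 0.47 in the knockout ones. The relation was therefore not particular to the S phase list, and rho was higher for it than for the G2/M list only in cardiomyocyte-like cells. Cells of a library share its preparation, and with few histone UMIs per thinned cell these values are a description only.

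In erythroid-like cells the slopes were unlike those of the heart classes. In the wildtype library the members went from 149 to 1488 CPM (3.32), but only 20 cells had at least 15 S phase UMIs and the median gene was at 2.21, and 18 of 20 members were called higher and 0 lower, beside 80.1% and 10.8% of all genes. In the knockout library they went from 1119 to 1629 (0.54), beside a median gene at 0.52, with 5 of 48 members called higher and 1 lower beside 23.1% and 1.23%. Knockout erythroid-like cells with 0 to 2 S phase UMIs had 3.60 histone UMIs per 3000, against 0.413 in the wildtype library. The 3000 UMIs include hemoglobin, which took 77.9% of this class's UMIs in the wildtype and 46.0% in the knockout library. An S phase range of these cells therefore does not rest on the same number of other UMIs in both libraries. The range of 0 to 2 held 90.6% of wildtype and 7.16% of knockout erythroid-like cells.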

How the data were processed

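The deposited values were raw UMI counts in sparse matrices. The submitters' processing notes name Cell Ranger 7.1.0 and mm10. The libraries were 10x 3' capture per the labels' protocols. The unfiltered matrices held 1451246 (wildtype) and 1632950 (knockout) barcodes with 122834180 and 130039314 UMIs. Barcodes with at least 3000 UMIs, at least 500 genes and at most 20% mitochondrial UMIs were kept. The 500-gene minimum removed 3642 wildtype and 15 knockout barcodes, those of the wildtype library with 88.7% hemoglobin UMIs. Kept barcodes held 79400375 and 110829003 UMIs.

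A cell's class score was the mean log2(1 + UMIs per 10000) of the markers, relative to the 50 highest cells of both libraries. A score of at least 0.5 in exactly 1 class set the class. Cells that reached this score in no class (554 wildtype, 1041 knockout) were left out of the classes. Cells with markers of 2 or more classes (900 wildtype, 213 knockout) were left out as well, which also removes some doublets. No doublet caller was run. Both kinds of cells remain in the values over all kept barcodes. UMIs were summed per class and library, scaled per 1000000 (CPM), and compared as log2 ratios with exact (Clopper-Pearson) 95% intervals, or exact Poisson ones for levels. Both cover counting error only. A gene was measured in a class with at least 20 UMIs. The calling rule, a ratio of at least 2-fold, is one of size and not a test. Counts were also simulated with Poisson error alone, from 1 pooled profile per class. By class, the rule recovered 99% to 100% of 8-fold changes and 90% to 98% of changes of 1.5 on the log2 scale. It called 0.800% to 5.50% of unchanged genes, most in epicardial-like cells. The intervals covered the true ratio for 95.8% to 96.8% of genes, but the simulation used their own counting model. These values leave out the spread between hearts and between libraries.

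S phase ranges used cells thinned to 3000 UMIs, and levels within a range used all their UMIs. The members, gene lists and marker lists were chosen with earlier results of these data known. Named members are the 12 with most UMIs, the 2 with most in each family, and the 3 highest and 3 lowest ratios per class among those with at least 50 UMIs; of other lists, the 2 highest and 2 lowest may be named. Stem-loops were matched in GENCODE vM21 transcripts (63 of 63 members matched) and promoters in RefSeq. Proteins were not compared here. Alternatives covered depth, mitochondrial limit, free RNA, scaling, thinning, barcodes of highest UMIs, marker limit, cell weights, calling rule and S phase range. Python 3.11.15, NumPy 2.4.6, SciPy 1.17.1, pandas 2.3.3 and matplotlib 3.10.9 were used.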

Additional observations from a re-analysis of the deposited data

Results flagged for a closer look

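The summed histone level differed in direction between cell classes of the same pair of libraries. Its knockout to wildtype log2 ratio was -0.38 in cardiomyocyte-like cells, and -0.05 in endothelial-like cells, against 0.21 in mesenchymal-like, 0.68 in epicardial-like and 2.73 in erythroid-like cells. What drew attention to these values is that cardiomyocyte-like cells were lower, and mesenchymal, epicardial and erythroid-like cells higher, under the same contrast; the endothelial value lay close to 0. With 1 library per group, the difference between classes was not tested.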

How the results depend on the processing

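No paired analysis was possible because each group has 1 library. For sums and counts, 65 of 120 alternative values stayed within the counting interval or within 1.5 times the count. Another 46 moved and 9 changed sign. For named members the numbers were 1228, 273 and 13 of 1514. A change of sign was counted for a member only where its reported ratio was at least 2-fold. Smaller ratios that changed sign are among the first 2 numbers. The cause of these shifts was not tested. The last 2 alternatives named for each class (S phase range, distance from the limit) and the S phase ratio without hemoglobin were chosen after seeing the data.

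The cardiomyocyte sum (-0.38) was -0.27 with a 10% mitochondrial limit, -0.32 without the 5% of cells with most UMIs, -0.27 with cells weighted equally, -0.63 in cells with at least 15 S phase UMIs and 0.01 in those with at most 5. The endothelial sum (-0.05) was -0.13 with a minimum of 6000 UMIs, 0.07 relative to the median gene, 0.05 thinned, 0.17 without the 5% of cells with most UMIs, 0.11 with cells weighted equally, and -0.87 and 0.06 in the high and low S phase ranges. The mesenchymal sum (0.21) was 0.11, 0.29, 0.30, 0.33 and 0.32 under those same 5 settings, -0.21 with a stricter limit, -0.31 and 0.88 in the S phase ranges, and 0.03 away from the limit.

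The epicardial sum (0.68) was 0.74 thinned, 0.80 without the 5% of cells with most UMIs, 0.58 with a stricter limit, and 0.11 and -0.09 in the S phase ranges. The erythroid sum (2.73) was 2.78 with 6000 UMIs, 2.82 less free RNA, 1.43 scaled without hemoglobin, mitochondrial and histone genes, 1.72 relative to the median gene, 2.60 thinned, 2.85 without the 5% of cells with most UMIs, 2.56 with a stricter limit, 2.58 with cells weighted equally, and 0.13 and 2.91 in the S phase ranges.

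With at least 50 UMIs in the class, 0 cardiomyocyte and 1 mesenchymal member were called higher and 1 endothelial member lower, and 1 endothelial member was lower relative to the median gene. By intervals that leave out 0, 3 cardiomyocyte members were higher and 10 lower, 6 endothelial higher and 9 lower, and 9 mesenchymal higher. The share of all genes past that rule was not counted. With ranges set on thinned cells, the knockout high to low S phase ratio was 1.65 in cardiomyocyte, 2.29 in endothelial, 1.24 in mesenchymal and 1.75 in epicardial cells. Without thinning the ratio was 2.62 (wildtype) and 2.22 (knockout) in cardiomyocyte and 3.41 in wildtype endothelial cells. It was 2.72 and 2.77 in mesenchymal, 1.90 and 2.60 in epicardial and 2.93 in wildtype erythroid cells. The mesenchymal knockout ratio was thus below the wildtype one (2.44) only with thinning. Scaled without hemoglobin it was 1.55 and 0.28 in erythroid cells.

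Among named members with a reported ratio of at least 2-fold, thinning turned Hist1h2bn (0.76) and Hist1h2af (0.55) in mesenchymal cells. In low S phase cells Hist1h3i was at -1.18 (endothelial) and Hist1h2be at -0.04 (epicardial). In high S phase epicardial cells Hist1h2ae was at -0.21, Hist1h2bc at 2.49 (from very few wildtype UMIs), Hist3h2a at 0.41 and Hist1h2bm at -0.13. In high S phase erythroid cells Hist1h1b was at -0.37, Hist1h2ap at -0.68, Hist1h1d at -0.08, Hist1h2be at -0.72 and Hist1h2ac at -1.40.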

Other observations

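A few barcodes held far more histone UMIs than any class described above. They were chosen by that level, at least 30 histone UMIs per 3000, so their values are a description. The wildtype library had 20 such barcodes, 8 of them megakaryocyte-like (with markers of the platelet-forming lineage), 9 of no class, and 1 each macrophage-like, neural-like and with markers of 2 or more classes. The highest had 124 histone UMIs per 3000, and histones made up 1.81% of the UMIs of the 20. Their histone UMIs came from few members: Hist1h2bc gave 33.4%, Hist1h1c 26.0%, Hist1h4i 18.2% and Hist1h1b 2.76%. The median was 1.5 S phase UMIs per 3000, and 8 of the 20 had Pf4, a platelet chemokine gene. The knockout library had 4 such barcodes, 3 megakaryocyte-like, with Hist1h1c at 50.4% and Hist1h2bc at 27.5% of their histone UMIs.

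Over all megakaryocyte-like cells, 15 in the wildtype and 96 in the knockout library, the members summed to 5305 and 1756 CPM. Hist1h1c was at 2185 and 292 CPM, Hist1h2bc at 1467 and 377, Hist1h4i at 734 and 123, and Hist1h1b at 7.72 and 283. The 15 wildtype cells are too few for a comparison by the minimum of 50 cells.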
